A study of Mus musculus with 12 samples.

Results

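The tumour necrosis factor (TNF) superfamily ligands and receptors were taken as the protein-coding genes of the deposited table whose symbols begin with Tnfsf or Tnfrsf and a digit, and 31 of 49585 genes met that rule: 11 ligands and 20 receptors. A further gene, the non-coding Tnfsf13os, matched by symbol and was left out. Their RNA was measured in nuclei of spinal cord microglia from C57BL/6 mice, in 12 libraries of 3 each from cord 3, 7 and 14 days after spinal cord injury and from sham-operated mice. The sham libraries carry the 7-day label, and each library pools the tissue of 3 animals. Nuclei that carried green fluorescent protein (GFP) were pulled down from tissue around the injury site with an antibody and magnetic beads, so nuclear RNA was read and most cytoplasmic RNA was left behind. Which allele or driver put GFP into the nuclei is not given in the sources at hand. The series' design text gives as its purpose the profile of microglia at 3, 7 and 14 days after injury.

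Ligands of this superfamily are membrane proteins, most of them also released by cleavage, that bind as trimers to receptors on neighbouring cells. Receptors with a death domain can start apoptosis or necroptosis, others recruit TRAF adaptor proteins and turn on NF-kappa-B, and decoy receptors bind ligand without passing a signal on. In the central nervous system microglia are a main source of TNF and carry both of its receptors, and ligands such as BAFF, TRAIL and TWEAK are made by myeloid cells.

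The 12 libraries held 4003480 to 10670804 counts, and the 31 members took 0.0629% to 0.11% of them. All 8 microglia markers were present in each library, with summed levels of 3057 to 3724 CPM (counts relative to the total of the library) at 3 days, 4204 to 4988 CPM at 7 days, 3655 to 4489 CPM at 14 days and 4418 to 5655 CPM in sham. Markers of other cells were present too. The 8 monocyte and macrophage markers summed to 1143 to 1632 CPM at 3 days, 250.2 to 634 CPM at 7 days, 747 to 884 CPM at 14 days and 122 to 166 CPM in sham, with Ly6c2 at a mean of 0.0505 CPM in sham. The 8 astrocyte markers summed to 1381 to 2298 CPM at 3 days, 1645 to 1906 CPM at 7 days, 2398 to 2836 CPM at 14 days and 551 to 4701 CPM in sham. Sham replicate 4 stood apart from the other two sham libraries: its astrocyte sum was 4701 CPM and its fibroblast and pericyte sum 466 CPM, while sham replicates 2 and 3 had 551 and 1589 CPM of the astrocyte markers and 59.3 and 82.6 CPM of the fibroblast and pericyte markers. Values without sham replicate 4 are therefore given beside the results that rest on it. The T and NK cell markers summed to at most 8.89 CPM in any library.

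**Figure D1:**
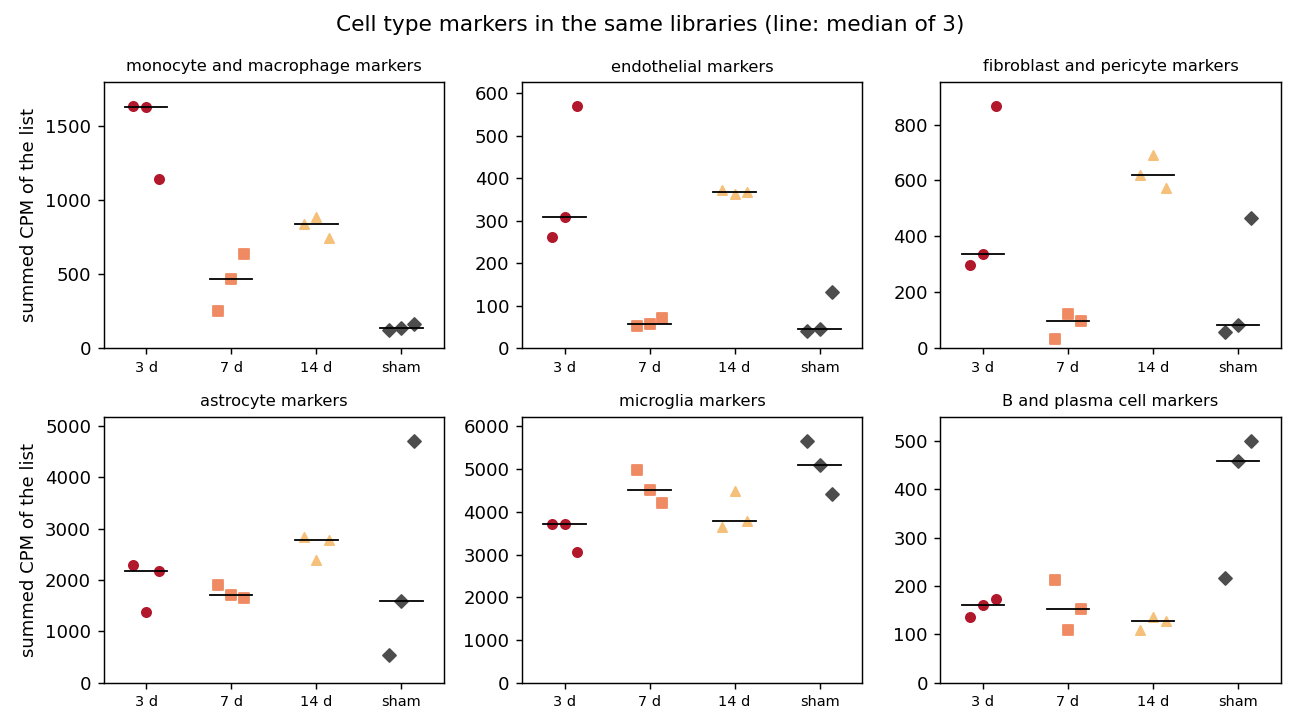
Summed CPM (vertical axes) of 6 lists of cell type markers in each library, by group (horizontal axes, 3, 7 and 14 days after injury, then sham); each point is a library and each line the median of 3. The monocyte and macrophage sum was 1143 to 1632 CPM at 3 days and 122 to 166 CPM in sham, and 1 sham library lies above all others for the astrocyte markers at 4701 CPM.

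Members can be ranked against each other only per length, for which RPKM (counts relative to gene length and library total) was used. Over all 12 libraries the receptor Tnfrsf21, a death-domain receptor also called DR6, had the highest mean level at 39.9 RPKM, followed by Tnfrsf1b at 30.5 RPKM, Tnfrsf11a at 28.6 RPKM and the ligand Tnfsf13b at 21.1 RPKM. Tnfrsf14, Tnfrsf13b and Tnfrsf1a came next at 17.3, 16.6 and 15.5 RPKM, ahead of Tnfsf8 at 7.62 RPKM and Tnfsf12 at 7.11 RPKM. In sham, 18 of the 31 members averaged at least 1 RPKM and 6 at least 10 RPKM. Each of the 30 pairs of neighbours in the sham order overlapped in their libraries, so no step in that order was wider than the spread. The order was not the same in every group. Tnfrsf21 ranked 1 at 3 and 14 days and in sham, and at 7 days Tnfrsf1b did (35.6 ± 8.11 RPKM, against 32.7 ± 8.09 RPKM of Tnfrsf21). In sham Tnfrsf1b ranked 4. Tnfsf13b ranked 7 at 3 days (11.2 ± 0.978 RPKM) and 2 in sham (37.3 ± 18.1 RPKM; SD, n = 3 libraries each). Tnfsf8 ranked 7 at 14 days (13.1 ± 0.854 RPKM) and 12 in sham (2.55 ± 0.750 RPKM). Tnfrsf17 ranked 20 at 3 days (1.02 ± 0.183 RPKM) and 8 in sham (7.58 ± 4.51 RPKM).

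**Figure D2:**
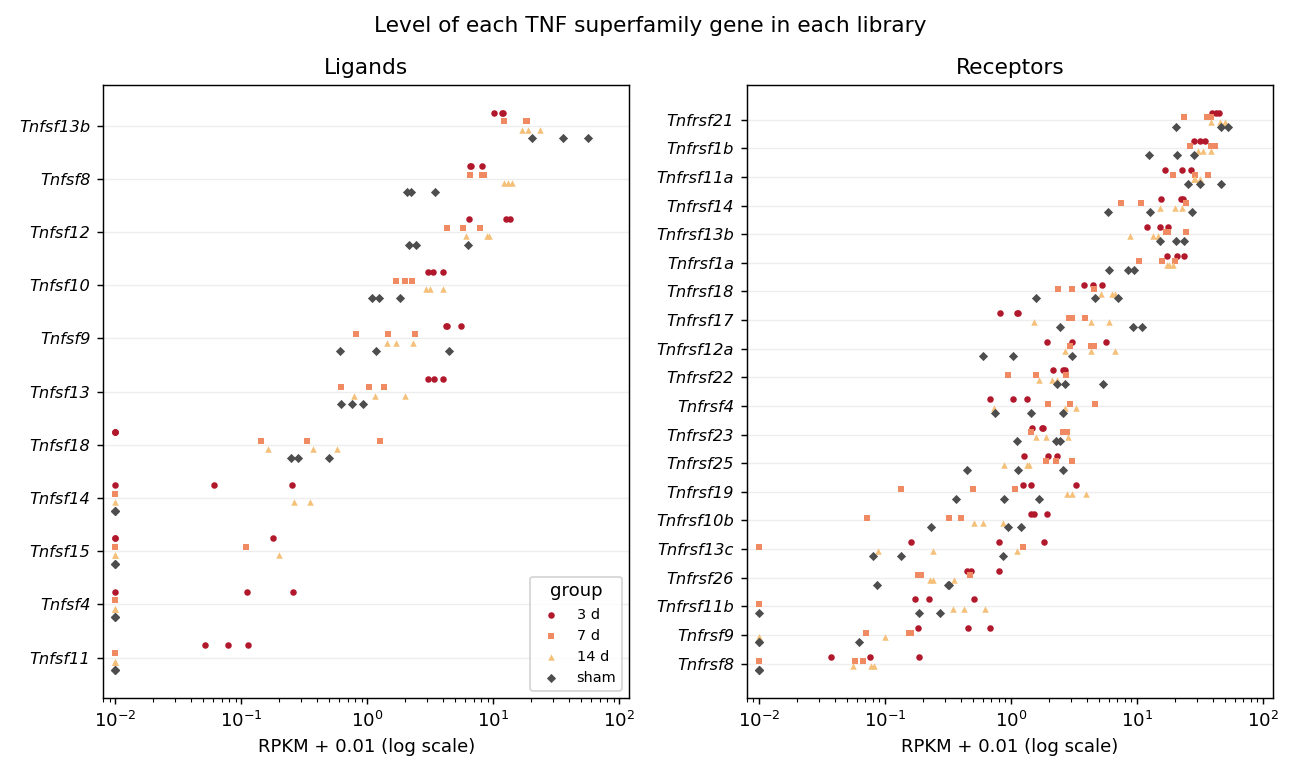
Level of each member in RPKM (horizontal log axis, after adding 0.01) in each library at 3, 7 and 14 days after injury and in sham, with ligands and receptors in separate panels ordered by mean. Averaged over all libraries Tnfrsf21 leads the receptors with 39.9 RPKM and Tnfsf13b the ligands with 21.1 RPKM.

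Of the 31 members, 22 had enough counts for a test: 6 ligands and 16 receptors. Changes were called with edgeR at a Benjamini-Hochberg adjusted p under 0.05 over the 18451 genes fitted, by the quasi-likelihood test, and log2 fold changes are given ± SE. At 3 days 5 of the 22 were higher and 2 lower than in sham, where 10.9% of all tested genes were higher and 9.17% lower (20.0% in either direction). At 7 days 3 were higher and 1 lower, where 4.61% of all tested genes were higher and 4.67% lower (9.28% in either direction). At 14 days 3 were higher and 1 lower, where 5.02% were higher and 4.79% lower (9.82% in either direction). The test of any difference between the 4 groups called 8 of the 22 and 26.4% of all tested genes. The median log2 change of the 22 against sham was 0.52 at 3 days, 0.08 at 7 days and 0.25 at 14 days, beside -0.03, 0.01 and -0.05 for all tested genes. These counts cover members that passed a filter on low counts and do not describe all 31. The 3 comparisons with sham share the same 3 sham libraries, and in bulk libraries fewer nuclei of a type and less RNA per nucleus cannot be told apart.

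The ligands held most of the calls at 3 days: 4 of 6 tested were higher than in sham and 1 was lower, with a median log2 change of 1.37, while 1 of 16 receptors was higher and 1 lower, with a median of 0.20. At 7 days 1 ligand was higher and 1 lower, and at 14 days 2 were higher and 1 lower. Whether ligands and receptors differ in this was not tested.

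**Figure D3:**
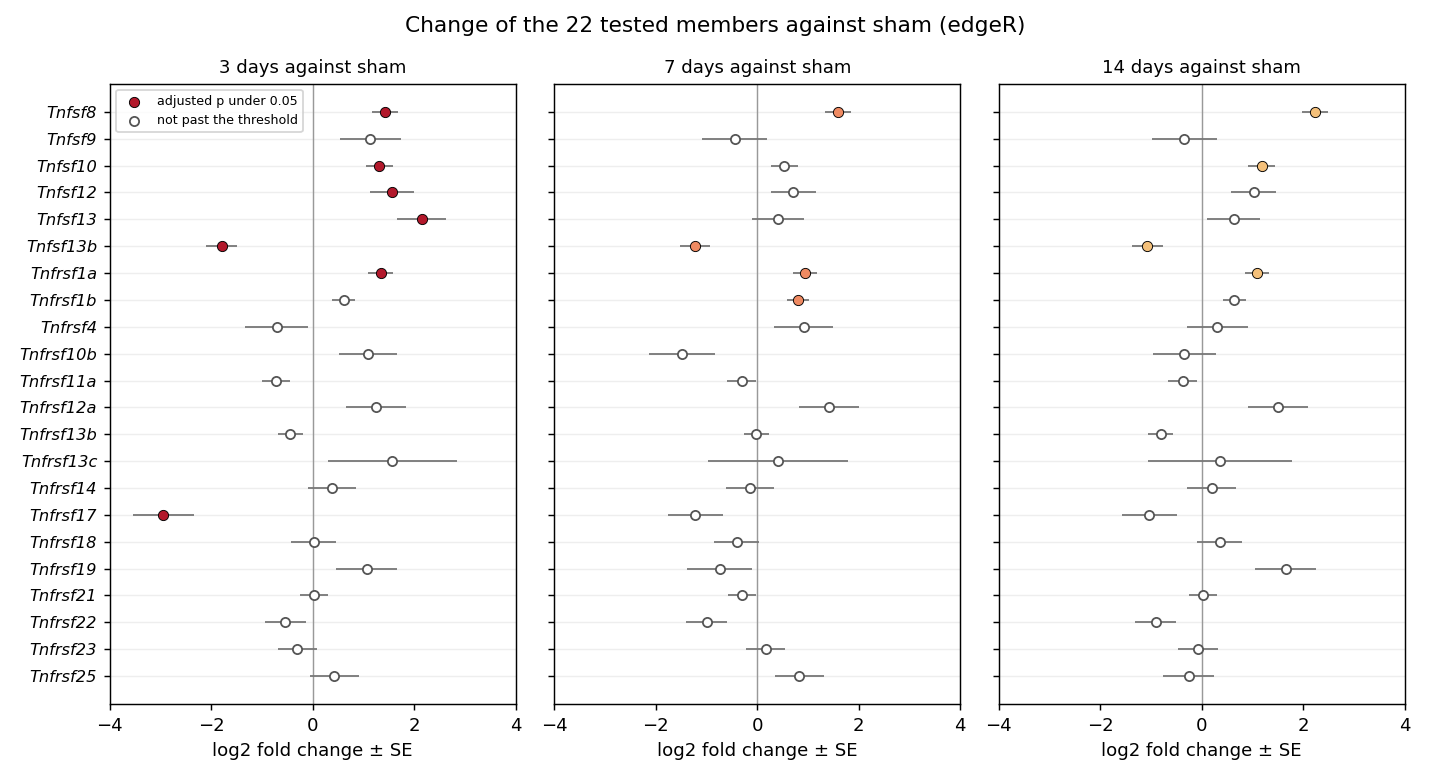
Log2 fold change against sham (horizontal axis) of the 22 tested members at 3, 7 and 14 days, with bars of 1 SE; members past the threshold are marked. Tnfsf8 and Tnfrsf1a lie right of 0 and Tnfsf13b left of 0 with a call at each of the 3 times.

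The promoters of 6 members whose level passed the test against sham are shown so that the letters can be read beside the values that follow. Each runs from 250 bases before to 50 bases after the RefSeq start site (GRCm38.p6, 5′ to 3′ on the gene's strand), and capitals mark matches to an interferon-stimulated response element or an AP-1 element. Tnfsf13b lies at chr8:10006383-10006682 on the + strand, Tnfrsf17 at chr16:11313559-11313858 on the + strand and Tnfrsf1a at chr6:125349473-125349772 on the + strand. Tnfsf13 lies at chr11:69685505-69685804, Tnfrsf1b at chr4:145246821-145247120 and Tnfsf8 at chr4:63861235-63861534, all on the − strand.
Tnfsf13b: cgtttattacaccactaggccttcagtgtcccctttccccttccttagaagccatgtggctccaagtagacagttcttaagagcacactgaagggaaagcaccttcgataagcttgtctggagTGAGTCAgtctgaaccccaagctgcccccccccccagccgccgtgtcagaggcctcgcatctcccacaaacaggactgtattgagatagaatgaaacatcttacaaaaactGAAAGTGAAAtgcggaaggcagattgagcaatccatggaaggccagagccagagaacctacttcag
Tnfsf13: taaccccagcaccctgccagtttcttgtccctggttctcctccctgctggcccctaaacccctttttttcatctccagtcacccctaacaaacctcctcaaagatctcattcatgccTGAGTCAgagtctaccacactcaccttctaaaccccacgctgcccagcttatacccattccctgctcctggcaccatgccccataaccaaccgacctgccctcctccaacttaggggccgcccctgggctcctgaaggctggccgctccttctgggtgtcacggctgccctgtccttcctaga
Tnfrsf17: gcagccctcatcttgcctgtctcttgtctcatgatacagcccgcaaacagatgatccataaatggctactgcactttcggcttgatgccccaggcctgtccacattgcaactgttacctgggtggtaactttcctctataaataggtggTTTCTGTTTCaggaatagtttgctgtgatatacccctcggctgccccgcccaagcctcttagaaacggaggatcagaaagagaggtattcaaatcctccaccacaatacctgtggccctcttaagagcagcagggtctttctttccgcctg
Tnfrsf1b: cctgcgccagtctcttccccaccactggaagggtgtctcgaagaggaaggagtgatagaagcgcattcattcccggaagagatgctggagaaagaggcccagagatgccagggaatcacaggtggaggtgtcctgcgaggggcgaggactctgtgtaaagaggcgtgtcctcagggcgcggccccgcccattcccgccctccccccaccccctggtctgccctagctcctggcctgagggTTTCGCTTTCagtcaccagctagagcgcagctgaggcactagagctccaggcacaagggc
Tnfsf8: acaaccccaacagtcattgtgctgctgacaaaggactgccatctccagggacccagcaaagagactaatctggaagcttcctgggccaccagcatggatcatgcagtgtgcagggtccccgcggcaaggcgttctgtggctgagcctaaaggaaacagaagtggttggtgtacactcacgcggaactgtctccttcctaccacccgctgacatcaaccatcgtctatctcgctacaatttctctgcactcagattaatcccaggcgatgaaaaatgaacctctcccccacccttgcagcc
Tnfrsf1a: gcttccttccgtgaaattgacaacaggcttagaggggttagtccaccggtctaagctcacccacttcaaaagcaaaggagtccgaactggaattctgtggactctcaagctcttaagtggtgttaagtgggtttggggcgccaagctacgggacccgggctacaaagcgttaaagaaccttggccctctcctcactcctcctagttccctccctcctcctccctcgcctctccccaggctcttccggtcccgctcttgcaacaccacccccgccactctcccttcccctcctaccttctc
The windows of Tnfsf8 and Tnfrsf1a, members called higher at all 3 times, held none of the 4 motifs searched. The Tnfrsf1a window begins at 125349473, inside the gene, whose annotated start is 125349362. The bases before that start were not searched. Tnfsf10 and Tnfsf12 also passed against sham and are not printed. The window of Tnfsf10 held none of the motifs either, and no window was at hand for Tnfsf12.

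Both strands of every window were searched for the interferon-stimulated response element (GAAA, any 2 bases and GAAA again), TGANTCA (AP-1), GAGGAAGT (PU.1) and the NF-kappa-B consensus, with overlapping matches kept. RefSeq windows were at hand for 24 of the 31 members, 28 windows in all. The interferon-stimulated response element was found in 4 of the 28 windows and in 3.44% of all 32851 windows: in Tnfsf13b 16 bases before the start site (-16), in Tnfrsf1b at -10, in Tnfrsf14 at -64 and in Tnfrsf17 at -101. The AP-1 element was found in 6 windows of 5 members and in 7.81% of all windows. It stood at -127 in the Tnfsf13b window above, where the match of a second, overlapping Tnfsf13b window is the same element, at -133 in Tnfsf13, and also in Tnfsf14, Tnfrsf8 and Tnfrsf9. The PU.1 element was found in 1 window (Tnfsf18) and in 3.2% of all, and the NF-kappa-B consensus in 2 (Tnfrsf8 and Tnfrsf9) and in 4.51% of all. A match describes these letters and is not a measured binding site.

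Tnfsf8, the ligand of CD30, was higher after injury at all 3 times and had its highest level at 14 days. The gene lies at chr4:63831308-63861347 (GRCm38, − strand). Its levels were 24.6, 31.1 and 25.7 CPM at 3 days, 32.9, 34.2 and 24.1 CPM at 7 days, 50.5, 43.9 and 47.7 CPM at 14 days, and 8.33, 7.77 and 14.6 CPM in sham. Every injured library was above every sham library, and the 14-day libraries were above all other libraries. Against sham, the log2 change was 1.43 ± 0.26 at 3 days (edgeR adjusted p = 0.00159), 1.59 ± 0.26 at 7 days (adjusted p = 0.00224) and 2.23 ± 0.26 at 14 days (adjusted p = 0.000117). The difference of 14 days from 3 days was 0.80 (edgeR adjusted p = 0.056) and that from 7 days 0.64 (adjusted p = 0.166), so neither passed. Both passed without sham replicate 4, at edgeR adjusted p = 0.0086 and 0.0399, and the difference from 3 days also without sham replicate 2 (adjusted p = 0.0328) or 3 (adjusted p = 0.0461). The receptor of Tnfsf8, Tnfrsf8 (CD30), was close to absent, with 11 counts over all libraries.

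Tnfsf13b, encoding the B cell survival factor BAFF, was the most abundant ligand and was lower after injury at all 3 times. It lies at chr8:10006467-10039072 (+ strand). Its levels were 79.0, 82.1 and 71.1 CPM at 3 days, 87.8, 132 and 122 CPM at 7 days, 109.6, 121 and 153 CPM at 14 days, and 148, 227 and 433 CPM in sham. All libraries of 3 and 7 days were below all sham libraries, while 1 of the 14-day libraries (153 CPM) was above the lowest sham library. The log2 change against sham was -1.80 ± 0.30 at 3 days (edgeR adjusted p = 0.000958), -1.23 ± 0.30 at 7 days (adjusted p = 0.0194) and -1.07 ± 0.30 at 14 days (adjusted p = 0.0328). Sham replicate 4 gave the highest value, and without it the change was -1.30 (edgeR adjusted p = 0.000498) at 3 days, -0.72 (adjusted p = 0.0504) at 7 days and -0.56 (adjusted p = 0.086) at 14 days. The fall at 3 days passed without that library, and those at 7 and 14 days did not. The call at 7 days was also lost without 7-day replicate 1 (edgeR adjusted p = 0.0898), and that at 14 days without 14-day replicate 1, 2 or 3 (adjusted p = 0.139, 0.119 and 0.0689) or 3-day replicate 1 (adjusted p = 0.0501). Tnfsf13b was 0.56 higher on the log2 scale at 7 days than at 3 days (edgeR adjusted p = 0.212) and 0.73 higher at 14 days than at 3 days (adjusted p = 0.156), differences that did not pass with all libraries and passed without sham replicate 4 (adjusted p = 0.038 and 0.019). The median sums of the 8 neuron markers ranked the groups as the means of Tnfsf13b did. These sums were 684 to 848 CPM at 3 days, 868 to 1089 CPM at 7 days and 1158 to 1699 CPM at 14 days. In sham replicates 2, 3 and 4 they were 1455, 1820 and 2837 CPM, in the order of Tnfsf13b. Within each injury time the order differed. At 3 days the sums were 684, 848 and 733 CPM in replicates 1, 2 and 3, beside 79.0, 82.1 and 71.1 CPM of Tnfsf13b. At 7 days they were 974, 1089 and 868 CPM in replicates 1, 3 and 4, beside 87.8, 132 and 122 CPM. At 14 days they were 1357, 1699 and 1158 CPM in replicates 1, 2 and 3, beside 109.6, 121 and 153 CPM. At 3 days 7 of the 8 neuron markers were lower than in sham, at 7 days 6 were and at 14 days 2. From 3 to 7 days 0 of the 8 passed, with a median log2 change of -0.06. Of 8 microglia markers, 3 were lower at 3 and at 14 days than in sham and 0 passed at 7 days. From 3 to 7 days 4 of them were higher. Over all tested genes 9.17%, 4.67% and 4.79% were lower than in sham at 3, 7 and 14 days, and 5.85% higher from 3 to 7 days. The part of neurons or of microglia in the level of Tnfsf13b was not tested.

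Tnfsf10, encoding the death-inducing ligand TRAIL, was higher at 3 and 14 days. It lies at chr3:27317028-27342427 (+ strand). Tnfsf10 stood at 15.7, 17.4 and 21.5 CPM at 3 days, 9.43, 11.1 and 11.5 CPM at 7 days, 15.8, 14.5 and 19.8 CPM at 14 days, and 6.05, 8.92 and 7.28 CPM in sham. Each injured library was above each sham library, and the 7-day libraries lay between those of sham and those of the other times. The log2 change against sham was 1.31 ± 0.26 at 3 days (edgeR adjusted p = 0.00339) and 1.18 ± 0.27 at 14 days (adjusted p = 0.0124), and 0.54 at 7 days (adjusted p = 0.216), which did not pass. The difference of 7 days from 3 days was -0.77 (edgeR adjusted p = 0.0556) and that of 14 days from 7 days 0.64 (adjusted p = 0.197). The call at 14 days was lost without 14-day replicate 3 (edgeR adjusted p = 0.0733), and the difference of 7 from 3 days passed without sham replicate 2 (adjusted p = 0.039) or 4 (adjusted p = 0.0306). The 8 endothelial markers also summed to less at 7 days than at 3 and 14 days, but there lay within the range of sham. They summed to 262 to 569 CPM at 3 days, 51.3 to 70.5 CPM at 7 days, 362 to 372 CPM at 14 days and 39.4 to 131 CPM in sham, with 8 of 8 higher at 3 days, 0 higher and 1 lower at 7 days and 5 higher at 14 days against sham. The 8 fibroblast and pericyte markers summed to 297 to 865 CPM at 3 days, 34.1 to 121 CPM at 7 days, 572 to 692 CPM at 14 days and 59.3 to 466 CPM in sham, with 1 of 8 higher at 3 days and none called at 7 or 14 days. The shares of all tested genes higher than in sham were 10.9%, 4.61% and 5.02% at 3, 7 and 14 days. Those lower were 9.17%, 4.67% and 4.79%. No endothelial marker had a group mean of 0. At 7 days the monocyte and macrophage sums (250.2 to 634 CPM) lay above those of sham (122 to 166 CPM) and below those of the other times. The part of these cell types in the level of Tnfsf10 was not tested.

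Tnfsf13 and Tnfsf12, neighbouring genes that encode APRIL and TWEAK, were higher at 3 days. Tnfsf13 (chr11:69682846-69685784, − strand) had 5.47, 6.52 and 5.09 CPM at 3 days, 1.05, 1.76 and 2.14 CPM at 7 days, 1.21, 3.04 and 1.78 CPM at 14 days, and 1.06, 1.14 and 1.68 CPM in sham. The 3-day libraries were above all 9 others. The log2 change against sham was 2.15 ± 0.48 at 3 days (edgeR adjusted p = 0.00653), and from 3 to 7 days it was -1.75 ± 0.45 (adjusted p = 0.022). The second call was lost without any 1 of the 3-day libraries or without 7-day replicate 1 or 3 (edgeR adjusted p = 0.0516 to 0.0847). Tnfsf12 (chr11:69686250-69695849, − strand) had 9.57, 19.0 and 21.1 CPM at 3 days, 6.91, 9.16 and 11.5 CPM at 7 days, 8.74, 13.1 and 12.9 CPM at 14 days, and 3.48, 3.43 and 10.6 CPM in sham. Its groups overlapped at every time because sham replicate 4 was at 10.6 CPM. Tnfsf12 changed by 1.56 ± 0.44 at 3 days (edgeR adjusted p = 0.0214), and by 0.71 at 7 days (adjusted p = 0.324) and 1.02 at 14 days (adjusted p = 0.16), which did not pass. Without sham replicate 4 its change was 2.24 at 3 days (edgeR adjusted p = 0.00095), 1.41 at 7 days (adjusted p = 0.043) and 1.71 at 14 days (adjusted p = 0.00935), all past the threshold. Leaving out 3-day replicate 2 (edgeR adjusted p = 0.0755), 3-day replicate 3 (adjusted p = 0.0976), sham replicate 2 (adjusted p = 0.0666) or sham replicate 3 (adjusted p = 0.0732) ended the call of Tnfsf12 at 3 days. Both genes overlap the read-through gene Tnfsfm13 on the same strand and the antisense gene Tnfsf13os, and the strand setting of the counting is not known from the sources, so reads of these genes cannot be told apart with certainty.

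**Figure D4:**
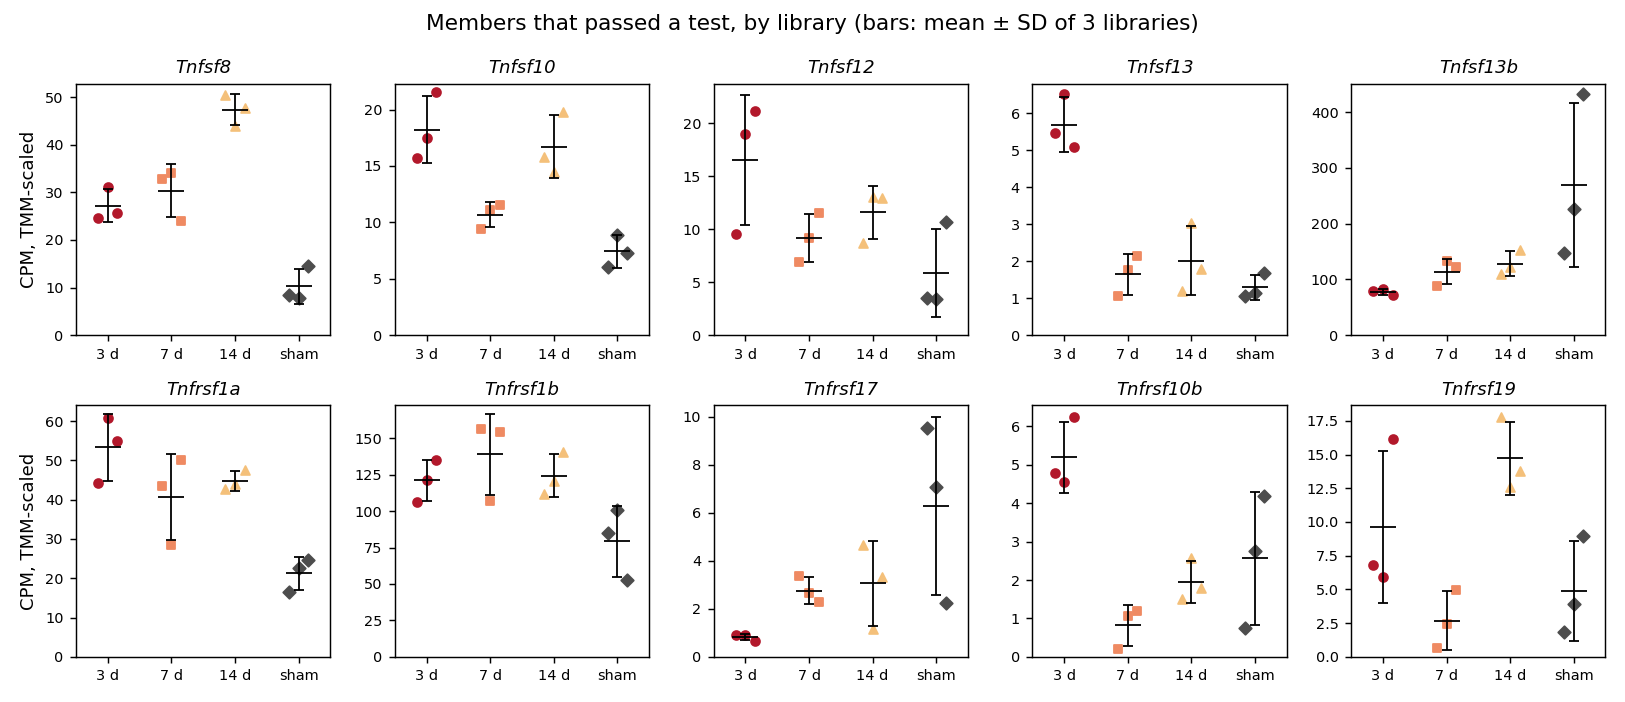
CPM (vertical axes, from 0) of members past the threshold, by group (3, 7 and 14 days after injury, then sham); points are libraries, and the dash with its bar is the mean ± SD of 3 libraries. Tnfsf8 is highest at 14 days with 43.9 to 50.5 CPM, and Tnfsf13b is lowest at 3 days with 71.1 to 82.1 CPM.

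Tnfsf9, the ligand of 4-1BB, was the tested ligand past no threshold. It averaged 5.80 ± 1.05 CPM at 3 days, 1.92 ± 0.876 CPM at 7 days, 2.09 ± 0.530 CPM at 14 days and 2.79 ± 2.95 CPM in sham (SD, n = 3 each). The change at 3 days was 1.13 (edgeR adjusted p = 0.198), and it was 2.30 (adjusted p = 0.00829) without sham replicate 4, which held 6.16 CPM beside 1.51 and 0.686 CPM in sham replicates 2 and 3.

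Tnfrsf1a, the death-domain receptor of TNF, was higher at all 3 times. The gene lies at chr6:125349362-125362484 (+ strand). Its levels were 44.2, 60.8 and 54.9 CPM at 3 days, 43.6, 28.5 and 50.0 CPM at 7 days, 42.8, 43.9 and 47.7 CPM at 14 days, and 16.5, 22.6 and 24.6 CPM in sham. No injured library overlapped the sham libraries. Tnfrsf1a rose by 1.34 ± 0.24 on the log2 scale at 3 days (edgeR adjusted p = 0.00152), 0.95 ± 0.24 at 7 days (adjusted p = 0.024) and 1.08 ± 0.24 at 14 days (adjusted p = 0.011). The call at 7 days was lost without 7-day replicate 1 (edgeR adjusted p = 0.074) and without 7-day replicate 4 (adjusted p = 0.106), and the call at 14 days without 14-day replicate 3 (adjusted p = 0.0518).

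Tnfrsf1b, the second receptor of TNF, lacks a death domain and signals through TRAF proteins. It lies at chr4:145213463-145246870 (− strand). Its levels were 107, 122 and 135 CPM at 3 days, 156, 107 and 154 CPM at 7 days, 112, 121 and 140.3 CPM at 14 days, and 84.8, 101 and 52.9 CPM in sham. Every injured library was above every sham library. The log2 change was 0.81 ± 0.22 at 7 days (edgeR adjusted p = 0.0364), and it was 0.61 at 3 days (adjusted p = 0.0682) and 0.64 at 14 days (adjusted p = 0.0843), which did not pass. Sham replicate 4 was the lowest library, and without it the change at 7 days was 0.58 (edgeR adjusted p = 0.0788). The call at 7 days was lost in 11 of 20 alternative settings, among them without any 1 of 3-day replicates 1 and 2, 7-day replicates 1 and 4 and the 14-day libraries. Without sham replicate 3 the changes at 3 and 14 days passed (edgeR adjusted p = 0.0321 and 0.0377), and without sham replicate 4 they were 0.36 (adjusted p = 0.19) and 0.41 (adjusted p = 0.171).

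TNF itself, whose symbol Tnf falls outside the rule, was given for its receptors. Tnf averaged 19.1 ± 2.05 CPM at 3 days, 11.8 ± 3.02 CPM at 7 days, 7.33 ± 0.347 CPM at 14 days and 2.59 ± 0.999 CPM in sham (SD, n = 3 each). Its log2 change against sham was 2.87 ± 0.33 (edgeR adjusted p = 5.73e-05), 2.17 ± 0.33 (adjusted p = 0.00157) and 1.48 ± 0.34 (adjusted p = 0.0134) at 3, 7 and 14 days. From 3 to 14 days Tnf fell by 1.38 ± 0.30 (edgeR adjusted p = 0.0124), a call lost without 3-day replicate 3 (adjusted p = 0.0683) or any 1 of the 14-day libraries (adjusted p = 0.0641 to 0.0812), and the call at 14 days was lost without 14-day replicate 3 (adjusted p = 0.0514).

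The receptors of BAFF and APRIL are Tnfrsf13b (TACI), Tnfrsf17 (BCMA) and, for BAFF only, Tnfrsf13c (BAFF receptor), all best known from B cells and plasma cells. Tnfrsf17 (chr16:11313812-11320074, + strand) was lower at 3 days. It had 0.911, 0.910 and 0.673 CPM at 3 days, 3.35, 2.64 and 2.27 CPM at 7 days, 4.67, 1.17 and 3.34 CPM at 14 days, and 9.54, 7.09 and 2.24 CPM in sham. The 3-day libraries were below all 9 others, while the libraries of 7 and 14 days overlapped those of sham. Tnfrsf17 fell by 2.95 ± 0.60 on the log2 scale at 3 days (edgeR adjusted p = 0.00374), and its change was -1.22 at 7 days (adjusted p = 0.162) and -1.03 at 14 days (adjusted p = 0.24), which did not pass. Tnfrsf13b was more abundant, at 49.2, 43.7 and 35.2 CPM at 3 days, 72.9, 52.7 and 46.4 CPM at 7 days, 39.5, 23.4 and 35.9 CPM at 14 days, and 71.0, 54.0 and 48.2 CPM in sham. The 14-day libraries of Tnfrsf13b were below those of sham without overlap, and no comparison passed for it with all libraries. Its change at 14 days was -0.81 (edgeR adjusted p = 0.0519), and it passed without sham replicate 4 (-0.94, adjusted p = 0.0207), without 7-day replicate 1 (adjusted p = 0.0496), with DESeq2 (adjusted p = 0.0244), with no filter on low counts (adjusted p = 0.0272) and with the replicate block (adjusted p = 0.0194). Without sham replicate 4 its change from 7 to 14 days passed too (-0.80, edgeR adjusted p = 0.0391). Tnfrsf13c stayed low, with means of 1.88, 0.881 and 0.900 CPM at 3, 7 and 14 days and 0.677 CPM in sham.

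Ighm, a marker of B and plasma cells, was also lower after injury. The 7 markers of that list summed to 135 to 174 CPM at 3 days, 109.7 to 213 CPM at 7 days, 109 to 135 CPM at 14 days and 217 to 499 CPM in sham, and nearly all of that was Ighm, at means of 154, 159.8 and 113 CPM at 3, 7 and 14 days and 401 CPM in sham. Only Ighm was tested among them, and it was lower at each time. Ms4a1, Pax5 and Jchain had group means of at most 0.88 CPM at any time after injury and 0.27 to 0.76 CPM in sham. The sum was lowest at 14 days, while Tnfsf13b and Tnfrsf17 were lowest at 3 days. In sham replicates 2, 3 and 4 the sum was 217, 457 and 499 CPM. Tnfsf13b had the same order there, with 148, 227 and 433 CPM, and Tnfrsf17 the opposite order, with 9.54, 7.09 and 2.24 CPM. The part of B or plasma cells in these levels was not tested.

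Tnfrsf10b, the death receptor for TRAIL in the mouse, passed in no comparison with sham. It lies at chr14:69767472-69784411 (+ strand). It had 4.78, 4.55 and 6.24 CPM at 3 days, 0.209, 1.06 and 1.20 CPM at 7 days, 1.51, 2.57 and 1.78 CPM at 14 days, and 0.757, 2.74 and 4.20 CPM in sham. The 3-day libraries were above all others, and its change from 3 to 7 days was -2.57 ± 0.62 (edgeR adjusted p = 0.0154). That call was lost without 3-day replicate 3 (edgeR adjusted p = 0.0804) or 7-day replicate 1 (adjusted p = 0.0618). Tnfrsf10b also passed the test of any difference (edgeR F-test, adjusted p = 0.0279), a call lost without any 1 of the 3-day libraries, 7-day replicates 1 and 3 and 14-day replicates 1 and 3. Against sham at 3 days the change was 1.09 (edgeR adjusted p = 0.193). The receptors Tnfrsf22 and Tnfrsf23, decoys for TRAIL in the mouse, had no call. Tnfrsf22 was at 8.88, 11.2 and 11.1 CPM at 3 days, 4.19, 12.2 and 6.42 CPM at 7 days, 8.44, 9.12 and 6.68 CPM at 14 days, and 10.4, 10.5 and 25.2 CPM in sham, with sham replicate 4 the highest of all libraries. Tnfrsf23 was at 6.83, 5.76 and 7.21 CPM at 3 days, 10.9, 5.99 and 10.7 CPM at 7 days, 5.88, 10.5 and 7.13 CPM at 14 days, and 10.3, 4.11 and 10.1 CPM in sham, and its groups overlapped. Tnfrsf22, Tnfrsf23 and Tnfrsf26 are neighbouring paralogs on chromosome 7 that all overlap E230032D23Rik, so reads between them are uncertain.

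Tnfrsf19 (TROY; chr14:60963875-61046490, − strand) is known from neural progenitors, astrocytes and other non-myeloid cells. It differed between the groups (edgeR F-test, adjusted p = 0.0292) but passed in no single comparison. Its levels were 6.83, 5.92 and 16.1 CPM at 3 days, 0.628, 2.47 and 4.95 CPM at 7 days, 17.8, 12.6 and 13.8 CPM at 14 days, and 1.82, 3.89 and 8.96 CPM in sham. The 7-day libraries were below those of 3 and 14 days, and the 14-day libraries above those of sham. The log2 difference of 14 days from 7 days was 2.39 (edgeR adjusted p = 0.0551), that of 7 days from 3 days -1.80 (adjusted p = 0.0609) and that of 14 days from sham 1.66 (adjusted p = 0.0961). Without sham replicate 4 these were 2.37 (edgeR adjusted p = 0.00895), -1.77 (adjusted p = 0.0213) and 2.41 (adjusted p = 0.0157), all past the threshold. Without 7-day replicate 1 or 3, or any 1 of the 14-day libraries, the test of any difference did not call it. The endothelial and the fibroblast and pericyte sums given above were also lower at 7 days than at 3 and 14 days and higher at 14 days than in sham. The astrocyte sums of 7 days (1645 to 1906 CPM) were below those of 14 days (2398 to 2836 CPM) and within the 3-day range (1381 to 2298 CPM). Those of 14 days lay within the range of sham (551 to 4701 CPM). In 7-day replicates 1, 3 and 4 the astrocyte sums were 1906, 1707 and 1645 CPM, the opposite order of Tnfrsf19. In 14-day replicates 1, 2 and 3 they were 2836, 2398 and 2772 CPM, in the order of Tnfrsf19. In sham replicates 2, 3 and 4 they were 551, 1589 and 4701 CPM, also in its order. At 3 days they were 2298, 1381 and 2179 CPM in replicates 1, 2 and 3, in another order. The endothelial sums had the order of Tnfrsf19 at 7 and 14 days and in sham, the fibroblast and pericyte sums only in sham. Of 8 astrocyte markers, 3 were lower at 7 days than at 3 days, 3 higher at 14 days than at 7 days and 3 higher at 14 days than in sham. In the same comparisons and directions 7.52%, 1.35% and 5.02% of all tested genes were called. The part of these cells was not tested.

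The remaining abundant receptors had no call. Tnfrsf11a (RANK), the receptor of the osteoclast factor RANKL, was at 159, 136 and 102 CPM at 3 days, 184, 234 and 111 CPM at 7 days, 165, 179 and 160.4 CPM at 14 days, and 201, 141 and 313 CPM in sham. Tnfrsf21 was at 159.9, 154 and 146 CPM at 3 days, 149, 90.7 and 126 CPM at 7 days, 134, 171 and 157 CPM at 14 days, and 78.7, 158 and 216 CPM in sham. For both genes the sham libraries overlapped those of each time, and for Tnfrsf21 they spanned all injured libraries. Tnfrsf14 (HVEM), a receptor of the ligand LIGHT, was at 17.8, 25.9 and 27.5 CPM at 3 days, 13.2, 9.16 and 27.3 CPM at 7 days, 16.7, 24.8 and 22.1 CPM at 14 days, and 7.27, 13.7 and 35.6 CPM in sham, again with overlap at each time. The TWEAK receptor Tnfrsf12a (Fn14) averaged 3.42, 3.89 and 4.15 CPM at 3, 7 and 14 days and 1.49 CPM in sham. The T cell costimulatory receptors Tnfrsf18 (GITR), Tnfrsf4 (OX40) and Tnfrsf25 averaged 6.90, 1.39 and 4.24 CPM at 3 days, 5.13, 4.47 and 5.57 CPM at 7 days, 8.75, 2.88 and 2.59 CPM at 14 days, and 7.08, 2.24 and 3.11 CPM in sham. None of these passed in any comparison with all libraries in the fit. Single libraries decided several: against sham at 3 days Tnfrsf14 passed without sham replicate 4 (1.18, edgeR adjusted p = 0.0482) and was -0.060 without sham replicate 2 (adjusted p = 0.939). Without sham replicate 3, Tnfrsf11a passed at 3 days (-0.99, edgeR adjusted p = 0.0233) and Tnfrsf12a at 3 and 14 days (2.03 and 2.32, adjusted p = 0.045 and 0.043). Tnfrsf4 passed from 3 to 7 days without sham replicate 2 or 4 (1.64 in both, edgeR adjusted p = 0.0481 and 0.04).

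The 9 members without a test held 3 to 77 counts over all 12 libraries: 5 ligands and 4 receptors. Of the ligands, Tnfsf4 (the OX40 ligand) had 5 counts and Tnfsf11 (RANKL) 3, in both cases all at 3 days. Tnfsf14 (LIGHT) had 4 counts at 3 days and 6 at 14 days, and 0 at 7 days and in sham, and Tnfsf15 had 6, 2 and 4 counts at 3, 7 and 14 days and 0 in sham. Tnfsf18 (the GITR ligand) had 0, 19 and 10 counts at 3, 7 and 14 days and 10 in sham. A count of 0 over the 3 libraries of a group allows a level of up to 0.139 CPM at 3 days, 0.164 CPM at 7 days, 0.205 CPM at 14 days and 0.198 CPM in sham, counting error only. Of the receptors, Tnfrsf9 (4-1BB) had 21, 6 and 1 counts at 3, 7 and 14 days and 1 in sham, and Tnfrsf8 had 6, 2 and 3 counts and 0 in sham. Tnfrsf11b (osteoprotegerin, a secreted decoy for RANKL) had 21, 0 and 18 counts at 3, 7 and 14 days and 5 in sham, and Tnfrsf26 had 36, 16 and 13 counts and 12 in sham.

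Ligands and their receptors can be set side by side per length. The ligand RANKL (Tnfsf11) had 3 counts in all libraries while its receptor Tnfrsf11a averaged 28.6 RPKM. The TRAIL ligand gene Tnfsf10 averaged 3.44 RPKM at 3 days, 1.98 RPKM at 7 days, 3.34 RPKM at 14 days and 1.38 RPKM in sham, and its death receptor Tnfrsf10b 1.63, 0.256 and 0.650 RPKM at 3, 7 and 14 days and 0.778 RPKM in sham. For TWEAK, Tnfsf12 averaged 10.8 RPKM at 3 days and 3.62 RPKM in sham, and Tnfrsf12a 3.53 RPKM at 3 days and 1.56 RPKM in sham. For BAFF, Tnfsf13b averaged 11.2 RPKM at 3 days and 37.3 RPKM in sham, and Tnfrsf13b 15.0 RPKM at 3 days and 19.7 RPKM in sham. These are levels of nuclear RNA per length, without a test between genes.

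Between injury times, 2 of the 22 tested members were lower and none higher at 7 days than at 3 days, Tnfsf13 and Tnfrsf10b, where 5.85% of all tested genes were higher and 7.52% lower (13.4% in either direction). Between 14 and 7 days edgeR called 0 of 22 members, with 5 at an unadjusted p under 0.05 and a smallest adjusted p of 0.0551, where 1.35% of all tested genes were higher and 0.835% lower (2.19% in either direction). DESeq2 called 1, Tnfrsf19. Between 14 and 3 days edgeR called 0 of 22, with 6 at an unadjusted p under 0.05 and a smallest adjusted p of 0.0558, where 2.17% of all tested genes were higher and 5.14% lower (7.31% in either direction). DESeq2 called 3: Tnfrsf17, Tnfsf8 and Tnfsf13. Without sham replicate 4 the counts were 8 from 3 to 7 days, 3 from 7 to 14 days and 5 from 3 to 14 days. No sham library is part of these comparisons. The share of all tested genes called in that fit is not at hand, so these counts are not read as a result about the members.

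Superfamily genes with other names and the signalling proteins downstream were read from 2 lists. Of 15 superfamily genes named otherwise, 7 had enough counts for a test. Of these, 1 (Tnf) was higher at 3 days, 2 (Tnf and Cd27) at 7 and at 14 days, and none was lower than in sham at any time. Over all tested genes 10.9%, 4.61% and 5.02% were higher and 9.17%, 4.67% and 4.79% lower at 3, 7 and 14 days. With so few genes tested, nothing is read from this list as a whole. Cd27, a costimulatory receptor of lymphocytes, averaged 14.6 ± 1.21 CPM at 3 days, 23.2 ± 2.09 CPM at 7 days, 19.2 ± 2.04 CPM at 14 days and 10.3 ± 1.86 CPM in sham (SD, n = 3 each). Its log2 change was 1.17 ± 0.23 at 7 days (edgeR adjusted p = 0.00737) and 0.89 ± 0.23 at 14 days (adjusted p = 0.025). The second was lost without any 1 of the 14-day libraries (edgeR adjusted p = 0.0566 to 0.105), with the replicate block (adjusted p = 0.06), with no filter on low counts (adjusted p = 0.0561) and with only the compared libraries (adjusted p = 0.0916), and the first with only the compared libraries (adjusted p = 0.108). The genes Cd40lg, Fasl, Lta and Cd70 had group means of at most 0.48 CPM.

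All 20 genes of receptor adaptors and death signalling were tested. At 3 days 4 were higher and 2 lower than in sham, at 7 days 1 was higher and 0 lower, and at 14 days 1 was higher and 1 lower. Over all tested genes 20.0%, 9.28% and 9.82% were called at 3, 7 and 14 days, against 30%, 5% and 10% of the list, and nothing is read from the list as a whole. The necroptosis kinase Ripk3 and its target Mlkl changed by 1.58 ± 0.38 (edgeR adjusted p = 0.0102) and 2.83 ± 0.60 (adjusted p = 0.00489) at 3 days. Both were lower at 7 days than at 3 days, Ripk3 by -1.43 (edgeR adjusted p = 0.0215) and Mlkl by -1.99 (adjusted p = 0.0312), and at 14 days than at 3 days, by -1.39 (adjusted p = 0.0345) and -1.95 (adjusted p = 0.0493). The calls between times were lost without any 1 of several libraries, among them each 3-day library, while both calls at 3 days against sham were kept. The adaptor Traf1 changed by 1.52 ± 0.39 (edgeR adjusted p = 0.0144) at 3 days, and Map3k14, the kinase NIK of the alternative NF-kappa-B pathway, also passed with all libraries in the fit. Traf1 did not pass without 3-day replicate 3 (edgeR adjusted p = 0.0727). Traf5 fell by 1.33 ± 0.32 at 3 days (edgeR adjusted p = 0.0101) and by 1.36 ± 0.32 at 14 days (adjusted p = 0.0165). Without sham replicate 4 its changes were -0.78 (edgeR adjusted p = 0.022) and -0.79 (adjusted p = 0.0293), and with the replicate number as a block neither passed (adjusted p = 0.0527 and 0.074). Cflar, an inhibitor of caspase-8, was the other gene lower at 3 days, a call lost without 3-day replicate 2 (edgeR adjusted p = 0.0609) or 3 (adjusted p = 0.114) and in 5 other settings (adjusted p = 0.0671 to 0.103). Cflar was 0.70 ± 0.15 higher at 7 days than at 3 days (edgeR adjusted p = 0.00797), which was lost without 3-day replicate 3 (adjusted p = 0.0579). Tnfaip3 (A20), which ends NF-kappa-B signalling, was the gene called at 7 days, with 0.94 ± 0.24 (edgeR adjusted p = 0.0235), and was higher at 14 days with 0.96 ± 0.24 (adjusted p = 0.0191). The 14-day calls of Traf5 and Tnfaip3 were lost without any 1 of the 14-day libraries (edgeR adjusted p = 0.0595 to 0.0783 and 0.0572 to 0.076), and the 7-day call of Tnfaip3 without 7-day replicate 3 (adjusted p = 0.0554) or 4 (adjusted p = 0.122).

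Monocyte and macrophage markers can be set beside the calls at 3 days, when 5 members were higher and 2 lower than in sham. Of 8, 6 were tested: 4 were higher and 0 lower at 3 days, 2 higher at 7 days, and 2 higher and 1 lower at 14 days. Among all tested genes 10.9%, 4.61% and 5.02% were higher and 9.17%, 4.67% and 4.79% lower at these times. All 8 endothelial markers were higher at 3 days too. The part of these cell types in the levels of the members called at 3 days, and of Tnf, Ripk3 and Mlkl, was not tested. Neutrophil markers summed to 924 to 1161 CPM at 3 days and 562 to 757 CPM in sham, nearly all of it Csf3r, while S100a8 and S100a9 averaged 0.83 and 1.03 CPM at 3 days and 0.63 and 1.05 CPM in sham.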

How the data were processed

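RNA of GFP-positive nuclei was measured in 12 libraries of 4 groups. Per the labels' protocols, single-primer isothermal amplification preceded library making. The submitters' processing notes name featureCounts 1.4.6-p3 with GRCm38 and mm10, and do not give aligner, strand setting or treatment of multiply matching reads. The authors deposited raw counts per Ensembl gene and a table of RPKM, which equal count over gene length and library total (largest relative difference 5.4e-14). All 12 columns were mapped by name.

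Counts were fitted in R 4.3.3 with edgeR 4.0.16: filterByExpr (18451 genes, 99.57% of counts), TMM, a quasi-likelihood fit of the 4 groups (common biological coefficient of variation 0.271), 6 pairwise contrasts and a test of any difference, Benjamini-Hochberg over all tested genes, threshold 0.05. Nothing in the labels says more of the libraries than 3 pooled animals each, so p-values measure the spread between such pools. CPM of genes are TMM-scaled; sums over lists are plain CPM. Intervals and floors (3 counts) cover counting error only. Alternatives tried: DESeq2 1.42.0, its median-ratio size factors in edgeR, no or a stricter filter on low counts (1 CPM in 3 libraries and a mean of 5 CPM), the replicate number as a block, a fit of only the compared libraries, limma 3.58.1 on log2(RPKM + 1) or log2(RPKM + 0.1), and each library left out. Gene positions are those of GENCODE for GRCm38, which all 31 members matched. Plots used matplotlib 3.10.9 under Python 3.11.15.

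The members and lists were chosen with earlier results of these data known. Members past the threshold against sham are named with every library's value, those past it only between times or in the test of any difference with that comparison, the 6 other tested members of highest mean CPM with library values, the rest with means, and untested members with counts; from the 2 signalling lists, up to 4 genes per comparison of smallest adjusted p.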

Additional observations from a re-analysis of the deposited data

Results flagged for a closer look

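Tnfsf13 and Tnfrsf10b differed between injury times by a test of the difference itself, from 3 to 7 days. For Tnfsf13 the log2 difference of 7 days from 3 days was -1.75 ± 0.45 (edgeR adjusted p = 0.022), with 3 of 3 libraries at 7 days below all 3 at 3 days. The call was lost without 3-day replicate 1 (edgeR adjusted p = 0.0516), 2 (adjusted p = 0.0708) or 3 (adjusted p = 0.076), and without 7-day replicate 1 (adjusted p = 0.0847) or 3 (adjusted p = 0.0664). For Tnfrsf10b the log2 difference was -2.57 ± 0.62 (edgeR adjusted p = 0.0154), again without overlap, and the call was lost without 3-day replicate 3 (adjusted p = 0.0804) or 7-day replicate 1 (adjusted p = 0.0618). Both genes have low counts, 198 and 193 over all libraries.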

How the results depend on the processing

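The 17 log2 changes of members past the threshold were recomputed under up to 20 alternatives, 336 values in all: none changed sign, 292 stayed past the threshold and 44 did not. The changes of Tnfsf8, Tnfsf10, Tnfsf13, Tnfsf13b, Tnfrsf1a and Tnfrsf17 at 3 days and of Tnfsf8 at 14 days passed in every alternative in which they were tested (Tnfsf13 and Tnfrsf17 had no value under the stricter filter). Counts of called members moved as follows. Shares of all tested genes under these alternatives are not at hand, so a moved count is not read as a result about the members. At 3 days, 7 became 6 to 10 on leaving out 1 library, with 10 without sham replicate 4. At 7 days, 4 became 0 in a fit of only the compared libraries and 2 with limma on log2 RPKM at either pseudocount, and 1 to 5 on leaving out 1 library. At 14 days, 4 became 7 with no filter, 2 with only the compared libraries and 1 to 6 on leaving out 1 library. From 3 to 7 days, 2 became 4 with DESeq2, 8 with no filter, 1 with the stricter filter, 8 with the replicate block, 8 with only the compared libraries and 0 to 8 on leaving out 1 library. The 1 call under the stricter filter was Tnfsf10, while Tnfsf13 and Tnfrsf10b, with means under 5 CPM, were not tested there. From 7 to 14 days, 0 became 1 with DESeq2, 3 with no filter, 2 with the replicate block, 2 with only the compared libraries, 1 with limma and a pseudocount of 1, and 0 to 3 on leaving out 1 library. From 3 to 14 days, 0 became 3 with DESeq2, 3 with no filter, 5 with only the compared libraries, 2 and 1 with limma and pseudocounts of 1 and 0.1, and 0 to 5 on leaving out 1 library. The test of any difference gave 16 with no filter, 5 with the stricter filter and 6 to 11 on leaving out 1 library, against 8. The calls lost under the stricter filter were those of members not tested there. The cause was not tested for the other changes in count.

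The replicate numbers do not pair the libraries: deviations of same-numbered libraries correlated at -0.36 to 0.07 over 13 pairs, and 2 of 12 libraries correlated best with their own number. With the replicate number as a block, the count of members was 10 at 3 days, 4 at 7 days, 6 at 14 days and 12 in the test of any difference, and the call of Tnfsf13b at 14 days was lost (edgeR adjusted p = 0.134). Median-ratio scaling shifted all genes at 3 days by -0.014 on the log2 scale and changed no count. Of the changes that did not pass, that of Tnfrsf14 at 3 days changed sign, ranging from -0.060 without sham replicate 2 to 1.18 without sham replicate 4. For 9 members the counts were too few for a test.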
